A study of Arabidopsis thaliana with 10 samples.

Results

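RNA-seq was used to compare 10-day-old seedlings of the Arabidopsis *efl2 efl4* double mutant with Col-0, the wild type. The comparison covers every gene whose mean over the 2 *efl2 efl4* and 2 Col-0 libraries was at least 10 normalized reads, which held for 20027 of the 32548 genes in the table. A normalized read is a read count that the authors scaled to a common library size. The sample labels spell this mutant elf2/4, and it is written *efl2 efl4* here. The study grew whole seedlings at 23°C in 16 h light and 8 h dark and also sequenced the insertion mutants *fld*, *ld* and *sdg26 aprf1*, 2 libraries each, all in the Col-0 background. The efl2 and efl4 mutations were made separately with Cas9 and brought together by crossing, so the double mutant is 1 line. The study calls its replicates independent but no source used here says whether they were separate cultures, and p-values then measure only the spread between these libraries. The 4 libraries held 20455413 to 20768023 reads on genes.

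*EFL2* and *EFL4* encode small proteins related to ELF4, a part of the evening complex of the circadian clock. The study places them in a protein complex with the products of FLD, LD, SDG26 and *APRF1*, members of the autonomous flowering pathway. That pathway keeps the MADS-box gene *FLC* low, and *FLC* in turn represses *FT* and *SOC1*, which drive the change to flowering. Besides these flowering genes, the comparison asks which other functions rose or fell in *efl2 efl4*.

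The Cas9 target sites are shown because they define the mutant and because the targeted genes are close relatives. Capitals mark the PAM, and the lower-case bases are the guide.
EFL2: ggagatgtgtattctggattTGG
EFL4: ggagatgtgttgtcaggattTGG
The guides come from the cloning oligonucleotides of the study, and the PAMs and positions were read from TAIR10.1, whose nuclear coordinates are those of TAIR10. The *EFL2* site lies on the plus strand at chr1:27345006-27345028 in the only coding exon of *EFL2* (AT1G72630), at bases 19 to 41 of 360 coding bases. The *EFL4* site lies on the plus strand at chr1:5997938-5997960 in the only coding exon of *EFL4* (AT1G17455), at bases 7 to 29 of 345. Counted from 1 at the 5′ end, the guides differ by A11T, T12G and T15A (*EFL2* base first), and each matched the 5 chromosomes once. RNA of both genes was still present in the mutant. Listed for replicates 1 and 2 of each genotype, as throughout, *EFL2* had 163 and 206 in Col-0 and 112 and 147 in *efl2 efl4* normalized reads. The mutant libraries were below the Col-0 libraries, with a log2FC of −0.51 (standard error 0.14; limma, adjusted p = 0.0805). *EFL4* had 117 and 149 in Col-0 and 112 and 91.1 in *efl2 efl4*, again without overlap, and a log2FC of −0.38 (adjusted p = 0.361). Neither passed an adjusted p of 0.05, and counts per gene do not show small deletions.

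Each gene was tested by limma on log2(normalized reads + 1), with the replicate number as a block. Adding 1 shrinks the log2 fold change (log2FC) where reads are few. With an adjusted p under 0.05, 573 genes (2.86% of those tested) differed, 340 (1.70%) higher and 233 (1.16%) lower in *efl2 efl4*. The median log2FC was 0.57 among the higher genes, −0.72 among the lower and −0.0022 over all genes tested. Most changes were small. At least 2-fold differences were found for 49 of the higher and 69 of the lower genes, and at least 4-fold for 9 and 18. At the study's thresholds (an absolute log2FC of at least 1 and an unadjusted p under 0.01), 169 genes (0.844%) were called, 69 higher and 100 lower. The study applied these thresholds with edgeR, so its own count is not the same measure as this limma count.

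These calls rest on the block and on how the spread was modelled. The fit left 1 residual degree of freedom per gene, and the spread was borrowed across genes along a trend with their level. *FLC* alone passed an adjusted p of 0.05 without the block, and again without the trend, and 0 genes passed without the filter on low values. Leaving out a library was possible only without the block, and then *FLC* and AT3G08790 passed without either Col-0 library and 0 genes without either *efl2 efl4* library. With the block, the edgeR quasi-likelihood test called 435 genes, of which 432 were among the 573, and DESeq2 called 131, all among them. By limma, 2836 genes had an unadjusted p under 0.05. All 573 kept their direction with both tools. With 2 libraries against 2, exact permutation of 1 gene cannot give a two-sided p below 0.333.

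Flowering genes gave some of the largest values. *FLC* had 4.03 and 3.97 in Col-0 and 371 and 391 in *efl2 efl4* normalized reads (log2FC 6.25). Among its relatives, *MAF5* (log2FC 3.02) and *MAF4* (log2FC 1.95) rose as well, so that 3 of 6 tested genes of the *FLC* clade were called, against 2.86% of all genes. Of 12 tested floral promoters, 3 fell, where 1.16% of all genes did, namely *SOC1* (log2FC −3.37), *FT* (log2FC −2.33) and *FUL*. *FUL*, a MADS-box gene of the inflorescence and fruit, had 33.3 and 42.7 in Col-0 and 10.97 and 10.01 in *efl2 efl4* (log2FC −1.75; adjusted p = 0.0155), with no overlap between genotypes. The list median was −0.44. *SPL5*, a promoter of flowering targeted by miR156, had 15.1 and 21.9 in Col-0 and 5.98 and 8.01 in *efl2 efl4* and was not called (adjusted p = 0.190). Of 17 other floral repressors 1 rose, where 1.70% of all genes did. It was *ATC*, a relative of *TFL1* (log2FC 0.48; adjusted p = 0.0221). Of the 17, edgeR called 1 and DESeq2 0.

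The genes with the largest changes beyond the flowering genes had several different functions. AT3G08790 (chromosome 3), an ENTH/VHS/GAT-domain protein of the kind that works in vesicle transport, was nearly silent in Col-0. It had 0 and 1.99 in Col-0 and 1218 and 1203 in *efl2 efl4* normalized reads (log2FC 9.45, standard error 0.32; adjusted p = 1.40e-08). The 2 Col-0 reads against 2423 in *efl2 efl4* gave a ratio of 1207, with an exact 95% interval of 334 to 9971 that covers counting error only. *CYCB1;5*, a B-type cyclin, rose from 20.2 and 24.8 to 182 and 249 (log2FC 3.20; adjusted p = 2.33e-06). The mutant libraries of both genes lay far above Col-0. *AGO9*, an Argonaute protein that binds small RNAs in reproductive tissue, had 6.05 and 2.98 in Col-0 and 59.8 and 36.05 in *efl2 efl4* (log2FC 3.17; adjusted p = 0.000657). *HEI10*, which acts in meiotic crossover formation, had 34.3 and 28.8 in Col-0 and 115 and 128 in *efl2 efl4* (log2FC 1.91; adjusted p = 0.000263). Both are known for reproductive roles and were read here in seedlings.

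Genes of less known function were also among the 15 largest rises. AT1G77960, annotated as similar to a repressor ROX1, had 37.3 and 24.8 in Col-0 and 180.5 and 153 in *efl2 efl4* (log2FC 2.41). The F-box genes AT5G60610, AT5G44980 and AT4G22390 had log2FC values of 2.25, 2.22 and 1.97, all with adjusted p values of at most 0.00932. In all 3, the higher Col-0 library stayed below the lower mutant library. Of 166 tested F-box genes, 4 rose and 0 fell, 2.41% against 2.86% of all genes. The rest of the 15 were AT4G00250, a storekeeper-related protein (log2FC 2.33), AT1G50040 with a DUF1005 domain (log2FC 1.87), AT1G33760 of the ERF/AP2 factors (log2FC 1.78) and *WRKY28* (log2FC 1.75).

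The largest falls were those of 3 loci without a known function. AT1G75945, an uncharacterized protein on chromosome 1, had 283 and 220.5 in Col-0 and 0.990 and 12.01 in *efl2 efl4* (log2FC −5.62, standard error 0.51; adjusted p = 5.28e-05). AT3G05945, annotated as a non-coding RNA, had 213 and 265 in Col-0 and 6.98 and 5.01 in *efl2 efl4* (log2FC −5.11, standard error 0.27; adjusted p = 6.14e-07). AT3G33528 had 43.4 and 33.8 in Col-0 and 0 and 0 in *efl2 efl4* (adjusted p = 0.000482). With a floor of 3 reads per library, AT3G33528 was at least 12.9-fold lower in the mutant. *PCR1*, a cadmium resistance protein of the plasma membrane, had 56.4 and 8.90 in Col-0 and 1.0 and 2.0 in *efl2 efl4*, so Col-0 replicates were far apart (log2FC −3.28; adjusted p = 0.0286). AT4G36700, a cupin, had 17.2 and 31.8 in Col-0 and 1.99 and 3.0 in *efl2 efl4* (log2FC −2.82). AT1G13470 with a DUF1262 domain (log2FC −2.26) and AT1G10300, a nucleolar GTP-binding protein (log2FC −2.25), completed the 15 together with *SOC1*, *FT* and the iron-related and defensin-like genes described next.

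**Figure D1:**
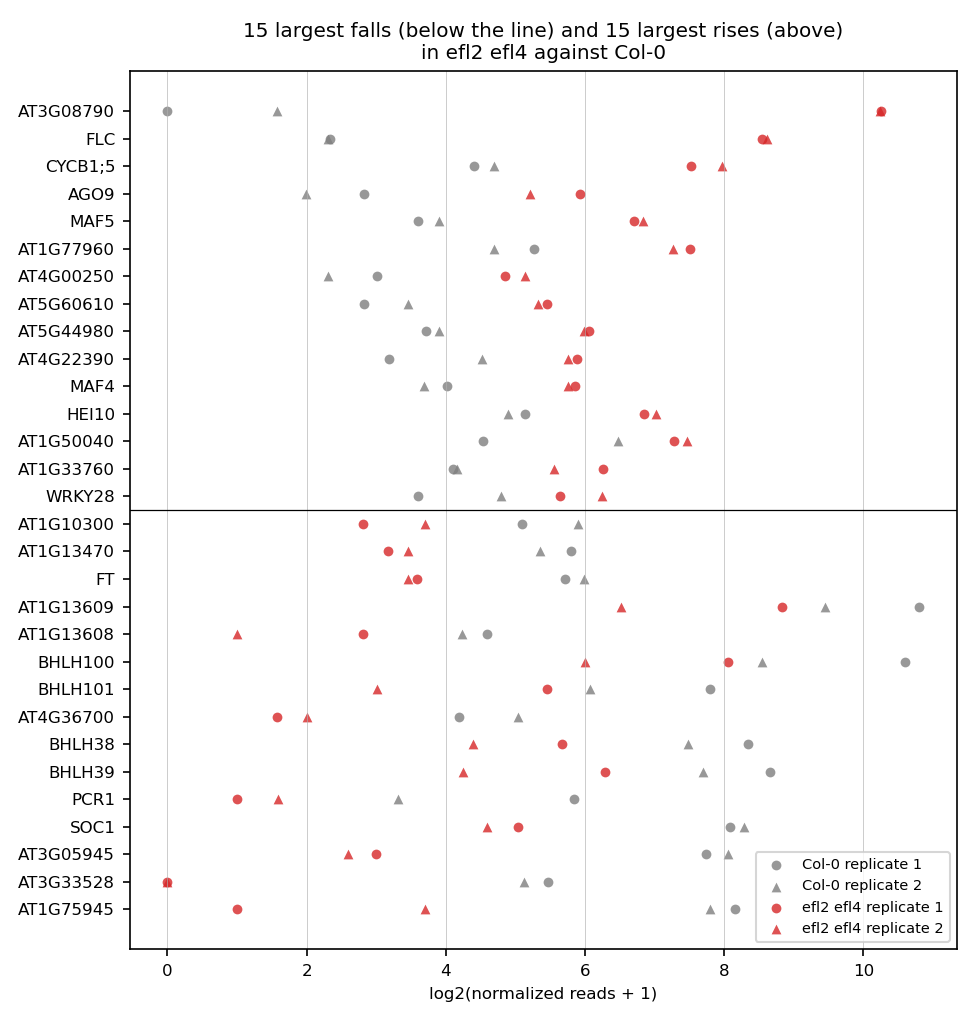
Normalized reads of the 15 largest rises (above the line) and 15 largest falls (below), as log2(normalized reads + 1) on the horizontal axis; each point is 1 library, grey for Col-0 and red for efl2 efl4, circles for replicate 1 and triangles for replicate 2. Red and grey points do not overlap for any of these genes, as the rule for choosing them required, and for BHLH100, BHLH101 and AT1G13609 circles lie to the right of triangles in both genotypes.

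The neighbours of the genes with an absolute log2FC of at least 3 were examined next. *SIEL* (AT3G08800), which is needed for movement of the transcription factor SHORT-ROOT between cells, overlaps AT3G08790 by 54 bases on the same strand. It had 165 and 164 in Col-0 and 379.9 and 488 in *efl2 efl4* (log2FC 1.38, standard error 0.13; adjusted p = 5.98e-05). AT3G08780 lies 290 bases away on the other side of AT3G08790, and had 385 and 447 in Col-0 and 472 and 419 in *efl2 efl4* (log2FC 0.10; adjusted p = 0.786). *SIEL* thus rose and AT3G08780 was not called, while reads from the overlap cannot be assigned to one gene. *MAF4* and *MAF5* are direct neighbours, separated by 1301 bases. AT1G14890, a pectin methylesterase inhibitor 3013 bases from *PCR1*, rose with 206 and 215 in Col-0 and 524 and 403 in *efl2 efl4* (log2FC 1.13; adjusted p = 0.000314). Beside *FLC*, AT5G10150 was not called (log2FC 0.30; adjusted p = 0.284). AT5G01675, a non-coding RNA that spans *FLC* on the opposite strand, was below the filter with 0 and 0.990 in Col-0 and 6.98 and 3.01 in *efl2 efl4* normalized reads. Whether counting used strand is not given in the sources used here, so reads of the pair cannot be told apart. None of the tested neighbours of *AGO9*, AT1G75945, AT3G33528 and AT3G05945 was called, nor was *BST1* beside *MAF5*. The neighbours of *CYCB1;5* and *SOC1* were below the filter; 1 of them, the non-coding RNA AT1G06757, lies on the opposite strand within *CYCB1;5*.

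Iron deficiency genes formed the group with the largest share of calls among the 26 lists. When iron is scarce, FIT and the Ib bHLH factors *BHLH38*, *BHLH39*, *BHLH100* and *BHLH101* switch on the reductase *FRO2* and the transporter *IRT1* in the root, and the ubiquitin ligase *BTS* limits this response. Of 23 tested members, 12 fell, where 1.16% of all genes did, and 2 rose. The median log2FC was −0.51, against −0.0022 over all genes. All 4 Ib bHLH genes fell, and they stood out for their size. *BHLH100* had 1547 and 371 in Col-0 and 264 and 63.1 in *efl2 efl4* normalized reads (log2FC −2.54, standard error 0.11; adjusted p = 7.46e-08). *BHLH38* had 325 and 177 in Col-0 and 49.9 and 20.03 in *efl2 efl4* (log2FC −2.88, standard error 0.18; adjusted p = 3.20e-06). *BHLH39* had 403 and 206 in Col-0 and 76.8 and 18.03 in *efl2 efl4* (log2FC −2.91; adjusted p = 1.51e-05). In both genotypes replicate 1 was higher than replicate 2. *BHLH101* followed the same pattern with 221 and 66.5 in Col-0 and 42.9 and 7.02 in *efl2 efl4* (log2FC −2.71; adjusted p = 6.73e-05). Within replicate 1 the log2 ratios of *BHLH100* and *BHLH101* were −2.54 and −2.34, and within replicate 2 −2.54 and −3.07.

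Genes that carry out or limit iron uptake had smaller log2FC values. *FRO3*, a ferric reductase of mitochondria, had 3094 and 2053 in Col-0 and 1662 and 996 in *efl2 efl4* (log2FC −0.97; adjusted p = 2.10e-05). *ZIF1*, which loads nicotianamine into the vacuole, fell (log2FC −0.88; adjusted p = 0.000155), and so did *BTS* (log2FC −0.69; adjusted p = 0.000156). *IRT1*, the main iron importer of the root, had 2107 and 1292 in Col-0 and 1279 and 1032 in *efl2 efl4* (log2FC −0.52; adjusted p = 0.0103). *CYP82C4*, an enzyme that modifies secreted coumarins, fell at a p close to the threshold (log2FC −0.51; adjusted p = 0.0437). Also on the list, AT1G47395, AT2G30766 and AT1G47400, to which the annotation used here gives no function, fell with log2FC values of −1.18, −0.85 and −0.91. *FIT1* (log2FC −0.35; adjusted p = 0.186) and *FRO2* (log2FC −0.41; adjusted p = 0.0637) were not called. *MYB10*, a factor of the nicotianamine branch, rose with 98.8 and 63.5 in Col-0 and 177 and 159 in *efl2 efl4* (log2FC 1.08; adjusted p = 0.00361). *NAS1*, a nicotianamine synthase, was the other member that rose, at the threshold (log2FC 0.30; adjusted p = 0.0497). Of the 23 genes, edgeR with the block called 12 and DESeq2 called 9. Without the block and without Col-0 replicate 1 AT1G47400 had a log2FC of 0.059, and without *efl2 efl4* replicate 2 AT2G30766 had 0.057.

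**Figure D2:**
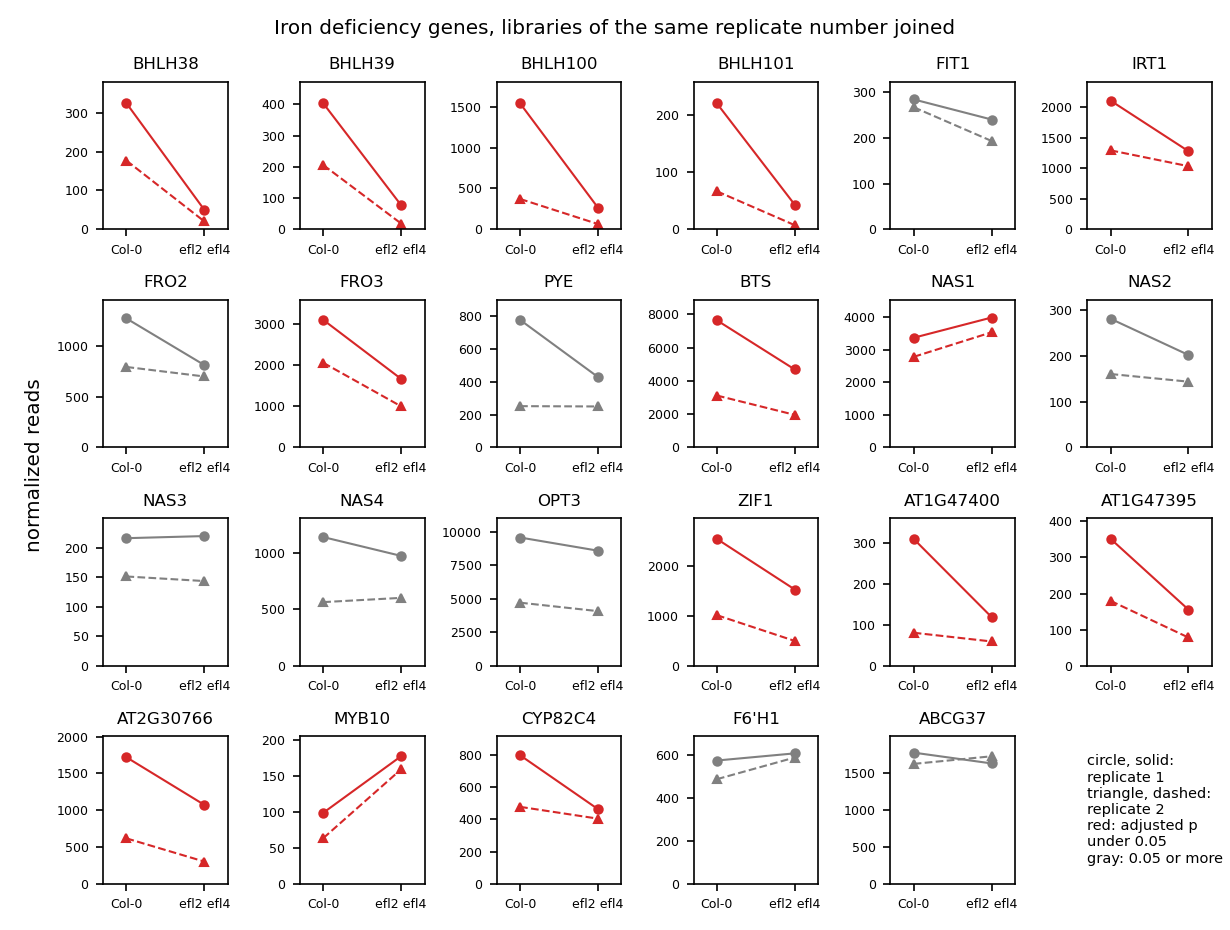
Normalized reads (vertical axis, from 0) of the 23 tested iron deficiency genes in Col-0 and efl2 efl4; lines join libraries with the same replicate number, circles and solid lines for replicate 1, triangles and dashed lines for replicate 2, red for an adjusted p under 0.05. In the panels of BHLH38, BHLH39, BHLH100 and BHLH101 both lines fall steeply, by log2FC values between −2.91 and −2.54.

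The 250 bases before the annotated starts of the Ib bHLH genes are shown because these genes fell together; capitals mark CACGTG, the G-box core bound by many bHLH factors (both strands, as it is its own reverse complement). All are read from TAIR10.1 on the minus strand, 5′ to 3′.
BHLH38: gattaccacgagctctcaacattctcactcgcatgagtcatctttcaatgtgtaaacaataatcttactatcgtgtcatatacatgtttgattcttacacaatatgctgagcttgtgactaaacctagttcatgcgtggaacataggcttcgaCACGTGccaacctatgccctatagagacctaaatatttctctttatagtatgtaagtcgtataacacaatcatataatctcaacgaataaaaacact
BHLH39: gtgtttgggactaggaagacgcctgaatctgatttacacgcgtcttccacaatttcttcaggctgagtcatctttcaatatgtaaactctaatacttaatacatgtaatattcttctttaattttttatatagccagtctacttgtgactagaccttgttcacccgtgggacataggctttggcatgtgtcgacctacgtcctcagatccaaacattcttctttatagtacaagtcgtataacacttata
BHLH100: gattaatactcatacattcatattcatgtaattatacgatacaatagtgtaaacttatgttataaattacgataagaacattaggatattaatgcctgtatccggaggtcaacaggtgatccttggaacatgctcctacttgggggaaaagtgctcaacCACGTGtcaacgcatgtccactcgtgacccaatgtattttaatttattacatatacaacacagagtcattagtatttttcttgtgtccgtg
BHLH101: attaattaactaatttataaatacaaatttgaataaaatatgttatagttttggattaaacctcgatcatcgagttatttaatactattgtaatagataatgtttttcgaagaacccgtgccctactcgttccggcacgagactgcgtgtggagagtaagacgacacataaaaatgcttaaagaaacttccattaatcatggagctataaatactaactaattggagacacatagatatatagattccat
These are chr3:21085246-21085495, chr3:21087711-21087960, chr2:17199455-17199704 and chr5:1139634-1139883. *BHLH38* and *BHLH100* each hold 1 match, beginning 97 and 91 bases before the gene, and *BHLH39* and *BHLH101* hold none. Of the 12 members that fell, 3 had a match in this window (*BHLH38*, *BHLH100* and *BTS*), and of the 11 other tested members 1 had. Over promoters of all tested genes the share was 7.32% (1465 of 20026). A match is a description and no evidence of binding.

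Genes of iron storage and copper moved in both directions. *FRO5* and *FRO4*, copper reductases of the root encoded side by side, fell: *FRO5* had 102 and 120.2 in Col-0 and 16.9 and 36.05 in *efl2 efl4* (log2FC −2.11; adjusted p = 0.000389) and *FRO4* had 542 and 719 in Col-0 and 355 and 358 in *efl2 efl4* (log2FC −0.81; adjusted p = 0.00148). *FER4*, a ferritin that stores iron, had 429 and 841 in Col-0 and 714 and 1039 in *efl2 efl4* (log2FC 0.52; adjusted p = 0.0200). *FSD1*, an iron superoxide dismutase, had 18257 and 24324 in Col-0 and 24669.8 and 30948 in *efl2 efl4* (log2FC 0.39; adjusted p = 0.0113). Both rose, and replicate 2 was higher than replicate 1 in both genotypes. The libraries of *FER4* overlapped between genotypes and those of *FSD1* did not. The list median over 12 genes was −0.071.

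Among flavonoid genes every call was a rise. Of 18 tested genes, 7 rose, where 1.70% of all genes did, none fell, and the median log2FC was 0.52. *TT7*, the flavonoid 3′-hydroxylase, had 1919.9 and 903 in Col-0 and 3452 and 1935 in *efl2 efl4* normalized reads (log2FC 0.97, standard error 0.08; adjusted p = 3.38e-05). *DFR*, the reductase that opens the anthocyanin branch, had 4655 and 2736 in Col-0 and 7512 and 4989 in *efl2 efl4* (log2FC 0.78, standard error 0.07; adjusted p = 8.44e-05). *LDOX*, the next enzyme, had 2969 and 1372 in Col-0 and 4557 and 2635 in *efl2 efl4* (log2FC 0.78; adjusted p = 0.000263). Replicate 1 was higher than replicate 2 in both genotypes, so libraries overlapped for some of these genes, and each mutant library was above the Col-0 library of its number. *UF3GT*, an anthocyanin glycosyltransferase, *TT8*, a bHLH regulator, *TT19*, a glutathione S-transferase needed to store anthocyanin, and *TT4*, chalcone synthase, had log2FC values of 0.76, 0.68, 0.56 and 0.48, with adjusted p values of 0.00129, 0.00934, 0.00681 and 0.00405. The ratio was larger in replicate 2 for all 7 genes, and the list medians were 0.24 in replicate 1 and 0.68 in replicate 2. The regulator *PAP1* had 351 and 58.5 in Col-0 and 399.8 and 124 in *efl2 efl4* and was not called (adjusted p = 0.0996). Of the early enzymes PAL1, PAL2 and C4H, none was called. By edgeR 7 members of the list passed and by DESeq2 5.

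Rapid touch and stress genes respond within minutes to handling, wounding or cold, and all their calls were rises. Of 25 tested members 9 rose, where 1.70% of all genes did, none fell, and the median log2FC was 0.33. Of the 25, edgeR called 9, DESeq2 5 and limma on all 10 libraries 4. *WRKY46*, a WRKY factor of defence and drought responses, had 119.9 and 29.8 in Col-0 and 331 and 118 in *efl2 efl4* (log2FC 1.71; adjusted p = 0.000155). *PHI-1*, an EXORDIUM-like phosphate-responsive protein, had 170.4 and 165 in Col-0 and 609 and 409.6 in *efl2 efl4* (log2FC 1.57; adjusted p = 3.38e-05). *TCH4*, a xyloglucan endotransglucosylase that remodels the wall, had 1637 and 518 in Col-0 and 3452 and 1934 in *efl2 efl4* (log2FC 1.49; adjusted p = 7.15e-05). Libraries of *WRKY46* overlapped between genotypes and those of *PHI-1* and *TCH4* did not. *DREB26*, an ERF/AP2 factor, had 335 and 263 in Col-0 and 837 and 800.1 in *efl2 efl4* (log2FC 1.46; adjusted p = 9.85e-06). *ACS7*, an ethylene synthesis enzyme, had 45.4 and 44.7 in Col-0 and 106 and 91.1 in *efl2 efl4* (log2FC 1.11; adjusted p = 0.00825). *WRKY28*, *WRKY18*, *WRKY40* and *WRKY33* rose too, the last 3 with log2FC values of 0.93, 0.56 and 0.52. Others of the list did not move with them: *ERF5* had 1020.4 and 217 in Col-0 and 398 and 237 in *efl2 efl4* and *CBF2* 28.2 and 1.96 in Col-0 and 3.99 and 6.01 in *efl2 efl4*, neither called (adjusted p = 0.237 and 0.797). The list medians were 0.074 in replicate 1 and 0.76 in replicate 2, so the shift was larger in replicate 2. In fits without the block, *WRKY40* and *WRKY33* had log2FC values of −0.39 and −0.048 without Col-0 replicate 2, *WRKY40* had −0.24 without *efl2 efl4* replicate 1, and *WRKY18* had −0.16 without Col-0 replicate 1. The time between handling and harvest is not given in the sources used here, and its part in these values was not tested. Against 1.70% higher and 1.16% lower over all genes, 6 of 56 WRKY genes rose and none fell. Among ERF/AP2 genes 6 of 68 rose and 1 fell, and among bHLH genes 1 of 94 rose and 6 fell. These families share members with the lists, such as the WRKY genes above and the Ib bHLH genes.

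**Figure D3:**
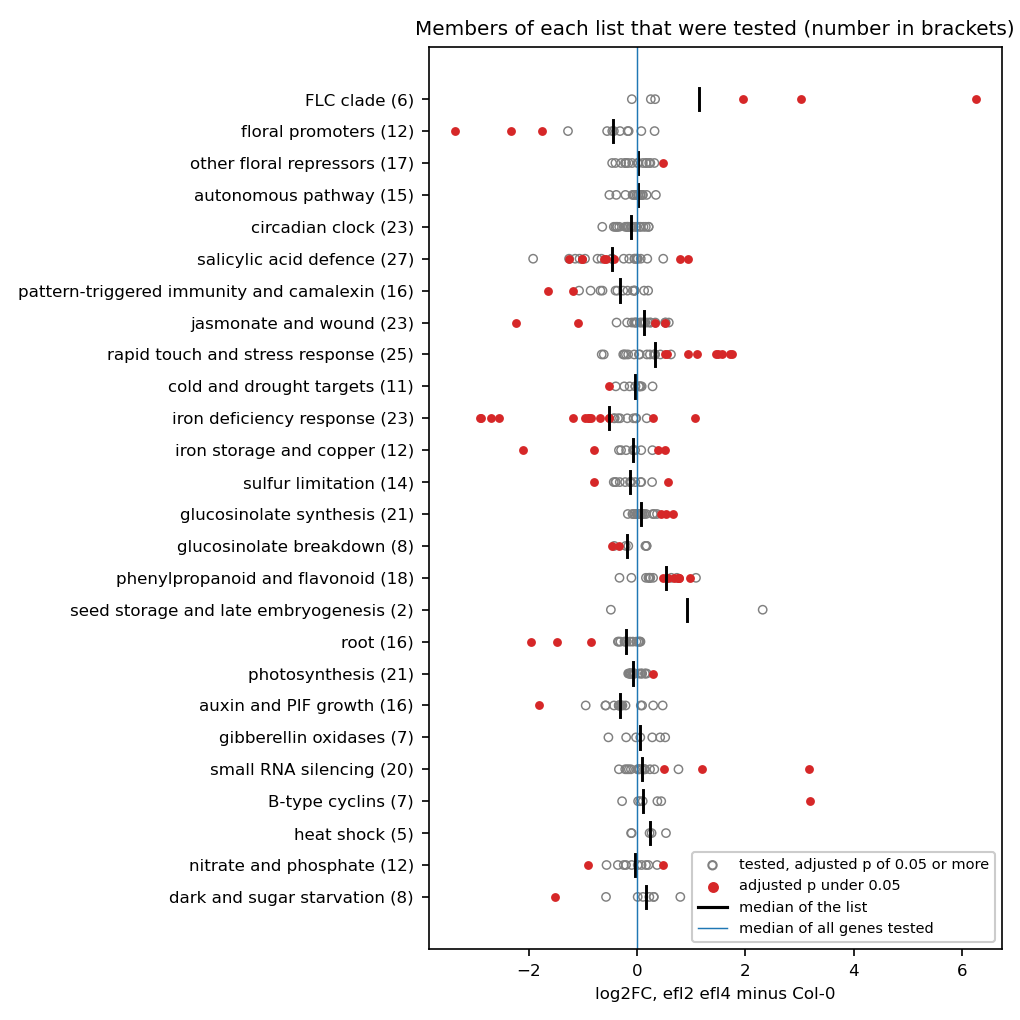
log2FC in efl2 efl4 against Col-0 (horizontal axis) of each tested member of 26 gene lists, red for an adjusted p under 0.05 and open grey otherwise; black bars mark list medians and the blue line the median of all genes tested. Red points lie mostly to the left for iron deficiency (12 of 14) and entirely to the right for flavonoid (7) and touch and stress genes (9).

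Calls among the listed salicylic acid defence genes were mostly falls. Of 27 tested genes of salicylic acid defence, 6 fell and 2 rose, where 1.16% and 1.70% of all genes did, and the median log2FC was −0.46. *ACD6*, an ankyrin protein that promotes salicylic acid signalling, had 4932 and 9627 in Col-0 and 2212 and 5181 in *efl2 efl4* (log2FC −1.02, standard error 0.08; adjusted p = 1.67e-05). *AED1*, an apoplastic aspartyl protease, had 277 and 174 in Col-0 and 134 and 87.1 in *efl2 efl4* (log2FC −1.02; adjusted p = 0.00131). *PBS3*, which conjugates isochorismate on the way to salicylic acid, had 97.8 and 51.6 in Col-0 and 34.9 and 24.04 in *efl2 efl4* (log2FC −1.27; adjusted p = 0.0118). All mutant libraries of *AED1* and *PBS3* were below those of Col-0, and for *ACD6* replicate 2 of the mutant lay above replicate 1 of Col-0. *DMR6*, a hydroxylase that breaks salicylic acid down, *PR2*, a glucanase, and *WAK1*, a wall-associated kinase, fell by less (log2FC −0.60, −0.58 and −0.43). *SARD1*, a factor that switches on salicylic acid synthesis, rose with 191 and 173 in Col-0 and 327 and 371 in *efl2 efl4* (log2FC 0.94; adjusted p = 0.00114), and *WRKY70* rose with a log2FC of 0.79 (adjusted p = 0.0216). *PR1*, the usual marker of the pathway, had 161 and 73.5 in Col-0 and 6.96 and 105 in *efl2 efl4* and was not called (adjusted p = 0.231). Of the 27 genes, edgeR called 6 and DESeq2 called 1. In fits without the block, *WAK1* had a log2FC of 0.087 without *efl2 efl4* replicate 1, and *WRKY70* had −0.39 without Col-0 replicate 2.

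Of 16 genes of pattern-triggered immunity and camalexin, 2 fell, where 1.16% of all genes did: AT1G26380, a berberine bridge enzyme with 44.4 and 56.6 in Col-0 and 8.96 and 26.03 in *efl2 efl4* (log2FC −1.64; adjusted p = 0.0171), and *CYP71A12*, a P450 of indole metabolism (log2FC −1.19; adjusted p = 0.0254). Of the 16, edgeR called 1, and DESeq2 and limma on all 10 libraries each called 0. Among 38 receptor-like proteins, 5 fell and 1 rose, where 1.16% and 1.70% of all genes did. *RLP33* had 87.8 and 174 in Col-0 and 18.9 and 61.1 in *efl2 efl4* (log2FC −1.82; adjusted p = 0.000482), and *RLP36* and *RLP38* fell with log2FC values of −1.38 and −1.202. *CRK6*, a cysteine-rich kinase, fell (log2FC −1.42; adjusted p = 0.0197), the only call among 25 kinases of its kind (4.00%, against 2.86% of all genes). Of 128 intracellular disease resistance genes 3 fell and 2 rose (3.91%, near the 2.86% of all genes).

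Among defensins every call was a fall. Of 12 tested defensin and defensin-like genes 3 fell, where 1.16% of all genes did, and none rose. *PDF1.3*, an antifungal peptide of the jasmonate and ethylene response, had 248 and 309.9 in Col-0 and 42.9 and 78.1 in *efl2 efl4* (log2FC −2.24, standard error 0.17; adjusted p = 1.48e-05). AT1G13609, a defensin-like gene, had 1787 and 695 in Col-0 and 453 and 90.14 in *efl2 efl4* (log2FC −2.46; adjusted p = 6.01e-06), and AT1G13608, encoded beside it, had 23.2 and 17.9 in Col-0 and 5.99 and 1.0 in *efl2 efl4* (adjusted p = 0.0323). In AT1G13609 replicate 1 exceeded replicate 2 in both genotypes, as in the Ib bHLH genes. The 23 tested jasmonate and wound genes were divided, with 2 rises and 2 falls, where 1.70% and 1.16% of all genes rose and fell. *AOC2* (log2FC 0.51) and *AOC1* (log2FC 0.34), enzymes of jasmonate synthesis, rose. *PDF1.3*, counted among the defensins as well, and *TAT3*, a tyrosine aminotransferase (log2FC −1.10; adjusted p = 0.0118), fell. The list median was 0.12. Of the 23, edgeR called 3, DESeq2 2 and limma on all 10 libraries 1.

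**Figure D4:**
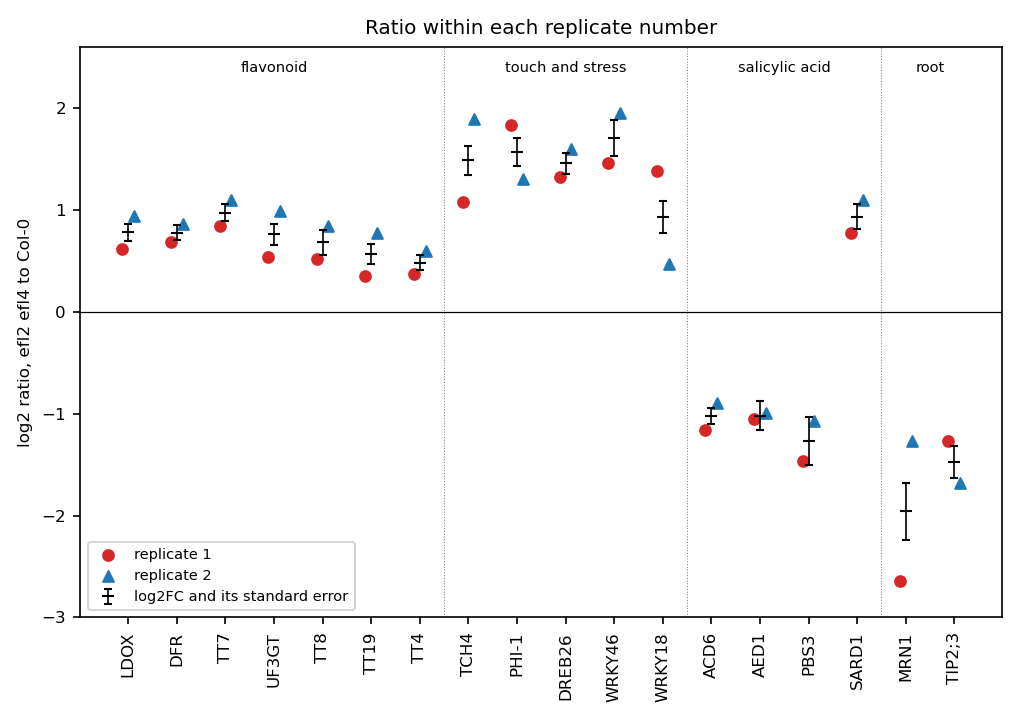
log2 ratio of efl2 efl4 to Col-0 (vertical axis) for 18 called genes of 4 lists, red circles within replicate 1 and blue triangles within replicate 2; black marks are the log2FC of the fit with its standard error. Flavonoid and touch and stress genes lie above 0 in both replicates; ACD6, AED1, PBS3, MRN1 and TIP2;3 lie below 0 in both and SARD1 above.

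Root genes showed 3 falls among 16 tested members, where 1.16% of all genes fell, and no rise. Of the 16, edgeR called 3, DESeq2 2 and limma on all 10 libraries 1. *MRN1*, marneral synthase of a root triterpene cluster, had 136 and 105 in Col-0 and 20.9 and 43.1 in *efl2 efl4* (log2FC −1.96; adjusted p = 0.00187). *MRO*, the oxidase encoded beside it, had 146 and 136 in Col-0 and 72.8 and 83.1 in *efl2 efl4* (log2FC −0.85; adjusted p = 0.0152). *TIP2;3*, a vacuolar aquaporin of roots, had 164 and 319 in Col-0 and 67.8 and 99.1 in *efl2 efl4* (log2FC −1.47; adjusted p = 0.000209). Mutant libraries were below Col-0 in all 3. The summed level of the 16 root genes was 9431 and 9192 in Col-0 and 7623 and 9023 in *efl2 efl4*, so 1 mutant library was lower and the other close to Col-0. Many iron uptake genes are also expressed in roots, and the part of root content in those values was not tested. In whole seedlings, fewer cells of a type and less RNA per cell cannot be told apart. Photosynthesis genes, a marker of green tissue, had 1 call among 21 (4.76%, against 2.86% of all genes), *LHCB1.2* (log2FC 0.30; adjusted p = 0.0457). By edgeR and by DESeq2, 0 of them passed. Their summed levels were 986437 to 1018430 in the 4 libraries.

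Glucosinolates are sulfur-rich defence compounds that myrosinases break down. Of 21 synthesis genes, 3 rose, where 1.70% of all genes did. Of the 21, edgeR called 2, limma on all 10 libraries 1 and DESeq2 0. The 3 genes were *CYP79F2* (log2FC 0.66; adjusted p = 0.00138), *CYP79B2* (log2FC 0.54; adjusted p = 0.00527) and *MAM1* (log2FC 0.43; adjusted p = 0.0412). They act in side chain elongation (*MAM1*) and the first step of the core pathway. Of 8 tested breakdown genes 2 fell, where 1.16% of all genes did, and 6 were not called. Of the 8, edgeR called 2 and DESeq2 1. The 2 that fell were the myrosinases *TGG2* and *TGG1*. *TGG2* had 28744 and 25416 in Col-0 and 21676 and 17706 in *efl2 efl4* (log2FC −0.46; adjusted p = 0.00369), and *TGG1* had a log2FC of −0.33 (adjusted p = 0.0429). All 5 of these changes were below 2-fold.

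Small RNA genes had 3 rises among 20, where 1.70% of all genes rose. *SGS3*, which acts with RDR6 to make secondary small interfering RNAs, had 423 and 414 in Col-0 and 1033 and 894 in *efl2 efl4* (log2FC 1.198, standard error 0.09; adjusted p = 1.90e-05). *AGO2*, an antiviral Argonaute, rose by less (log2FC 0.49; adjusted p = 0.0162), and *AGO9* is described above. None fell, and the list median was 0.088.

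Growth, nutrient and cold lists held 1 or 2 calls each, where 2.86% of all genes were called. DESeq2 called 0 genes in each of these lists. *PRE1*, a small bHLH protein that promotes cell elongation, had 27.3 and 72.5 in Col-0 and 7.97 and 18.02 in *efl2 efl4* (log2FC −1.80; adjusted p = 0.00764), the only call of 16 genes of auxin and PIF growth. *DIN11*, a gene induced in darkness, had 84.7 and 67.5 in Col-0 and 18.9 and 35.05 in *efl2 efl4* (log2FC −1.52; adjusted p = 0.0122). It was the only call of 8 tested dark and sugar starvation genes. Of 12 tested nitrate and phosphate genes, 1 fell and 1 rose. *MGD3*, a galactolipid synthase of phosphate starvation, fell (log2FC −0.91; adjusted p = 0.0144) and *LBD38*, a nitrate-responsive repressor of anthocyanin genes, rose (log2FC 0.47; adjusted p = 0.00705). Of 14 sulfur limitation genes, *GGCT2;1*, which breaks down glutathione, fell (log2FC −0.79; adjusted p = 0.00689) and *BGLU28*, a glucosidase, rose (log2FC 0.58; adjusted p = 0.0401). *KIN2* was the only call of 11 tested cold and drought targets, and fell (log2FC −0.52; adjusted p = 0.0162).

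In 5 lists limma called 0 genes. Of 23 tested clock genes, ELF4 itself among them, 4 had an unadjusted p under 0.05, and edgeR and DESeq2 called 0. *PRR3*, a clock regulator, came nearest, with 473 and 329 in Col-0 and 359.9 and 237 in *efl2 efl4* (log2FC −0.43; adjusted p = 0.0533). The list median was −0.12. The time of day of the harvest is not given in the sources used here. Of 15 autonomous pathway genes 2, of 7 gibberellin oxidases 1 and of 5 heat shock genes 1 had an unadjusted p under 0.05, and edgeR and DESeq2 called 0 of each. Of 20 listed seed storage and late embryogenesis genes only 2 passed the filter, 1 of them with an unadjusted p under 0.05, and edgeR called 1 and DESeq2 0. A p above the threshold does not show that these genes were alike.

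Among product families, named from the annotation, peroxidases had the largest number of rises relative to their size. Of 54 tested peroxidases, which act in wall cross-linking and defence, 10 rose and 2 fell, a share of 22.2% against 2.86%, although the family median was −0.015. AT5G64110 had 152 and 149.98 in Col-0 and 396 and 315 in *efl2 efl4* (log2FC 1.22; adjusted p = 0.000186) and AT5G19890 had 209 and 265 in Col-0 and 459 and 451 in *efl2 efl4* (log2FC 0.95; adjusted p = 0.000732). Of 50 lipid-transfer genes 8 rose and 2 fell (20%). AT4G12490 of this family had 165 and 142 in Col-0 and 451 and 408 in *efl2 efl4* (log2FC 1.48; adjusted p = 2.01e-05). Both mutant libraries of these 3 genes were above both Col-0 libraries. Of 167 cytochrome P450 genes 10 rose and 4 fell (8.38%, against 2.86% of all genes). *CYP707A3*, which inactivates abscisic acid, had 858 and 243 in Col-0 and 1887 and 744 in *efl2 efl4* (log2FC 1.37; adjusted p = 2.10e-05), with overlapping libraries. UDP-glycosyltransferases had 7 rises and 3 falls among 103 (9.71%). Ribosomal protein genes, a large family of even expression, had 2 calls among 281 (0.712%) and a median log2FC of 0.030. Transposon proteins had 0 calls among 14 by limma, edgeR and DESeq2, and 1 had an unadjusted p under 0.05.

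To see where *efl2 efl4* differed from the other mutants, it was compared with the mean of *fld*, *ld* and *sdg26 aprf1*, without use of the Col-0 libraries. The edgeR quasi-likelihood test on recovered reads, with all 10 libraries in 1 fit and the block, called 779 of 20057 genes (3.88%), 462 (2.30%) higher and 317 (1.58%) lower in *efl2 efl4*. *FLC* was not called (log2 difference 0.058, adjusted p = 0.713), with 359.8 and 377 scaled reads (recovered reads put on 1 library size for all 10 libraries) in *efl2 efl4*, 604 and 592 in *fld*, 479 and 507 in *ld* and 161 and 139 in *sdg26 aprf1*, so *efl2 efl4* lay between the other mutants. AT3G08790 had 1182 and 1161 scaled reads in *efl2 efl4* and at most 2.92 in every other library (log2 difference 10.95; adjusted p = 4.47e-08). *SIEL* beside it differed as well (log2 difference 1.57; adjusted p = 2.49e-05). *CYCB1;5* was at 3.86 to 25.4 in the other mutants and *AGO9* at 0 to 5.87, with log2 differences of 4.50 and 4.33 (adjusted p = 2.68e-05 and 8.17e-05). *HEI10* and *SGS3* were also higher, by 1.72 and 1.23 (adjusted p = 0.000165 and 2.19e-05). AT1G77960, one of the 15 largest rises, was in contrast not called (log2 difference −0.28; adjusted p = 0.204) against the other mutants, where it had 118.7 to 284 scaled reads.

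Among the falls, AT3G05945 had 6.77 and 4.83 scaled reads in *efl2 efl4* and 194.6 to 302 in the other mutants (log2 difference −5.37; adjusted p = 5.20e-07). AT1G75945 had 0.967 and 11.6 against 190.0 to 267.5 (log2 difference −5.21; adjusted p = 2.68e-05). AT3G33528 was instead low in all mutants, at 0 to 2.97, and did not reach the filter. AT4G36700 was lower in *efl2 efl4* (log2 difference −3.85; adjusted p = 0.0216). Over all genes tested in this comparison, 1.58% were lower and 2.30% higher. Of the 23 iron deficiency genes, 13 were lower and 1 higher than in the other mutants, with a median difference of −0.63. The differences of *BHLH101*, *BHLH38*, *BHLH100* and *BHLH39* were −2.99, −2.89, −2.87 and −2.74, with adjusted p values of 5.59e-05, 8.17e-05, 1.67e-05 and 0.000207. Of 18 flavonoid genes 7 were higher, *TT7* by 0.90 and *DFR* by 0.62 (adjusted p = 0.00150 and 0.00203). Of 25 touch and stress genes 2 were higher, and of 27 genes of salicylic acid defence 1 was higher and 1 lower. A call of 1 gene each way cannot be told apart from the share of all genes. The count of calls fell to 114 and 109 without *efl2 efl4* replicate 1 or 2, and was 1276 without *sdg26 aprf1* replicate 2.

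**Figure D5:**
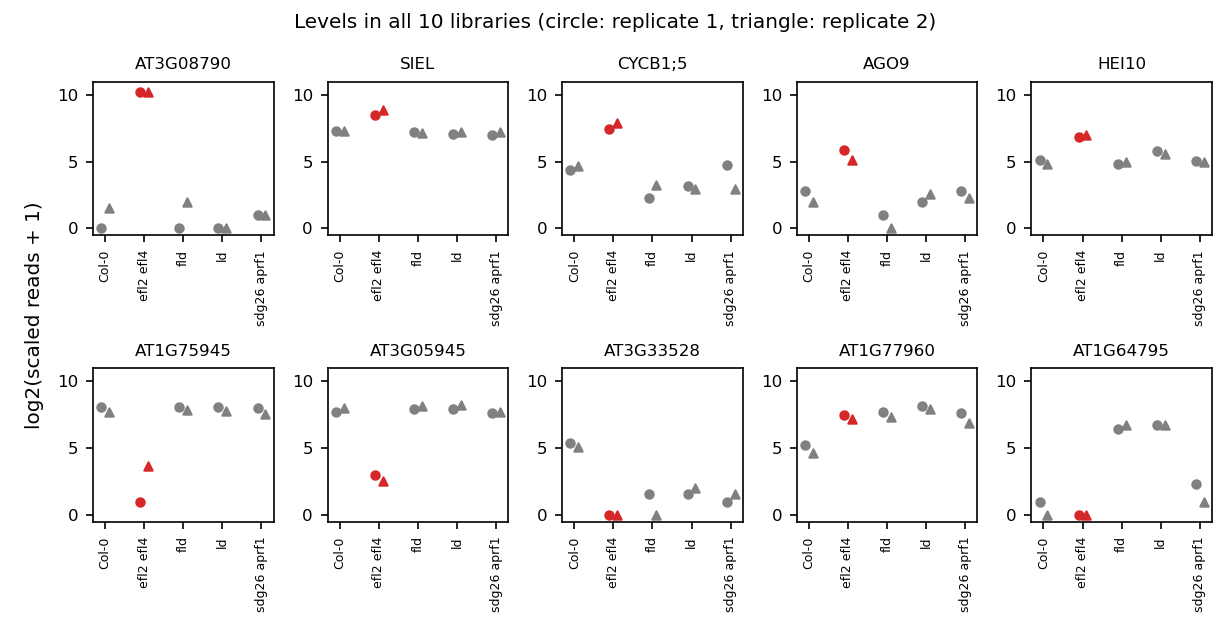
Levels of 10 genes in all 10 libraries as log2(scaled reads + 1) on the vertical axis; each point is 1 library, red for efl2 efl4 and grey for the other genotypes, circles for replicate 1 and triangles for replicate 2. AT3G08790, SIEL, CYCB1;5, AGO9 and HEI10 stand high and AT1G75945 and AT3G05945 low in the 2 efl2 efl4 libraries compared with the other 8, whereas AT1G77960 is high and AT3G33528 low in all mutants, and AT1G64795 is high in fld and ld.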

How the data were processed

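Total RNA of 10-day-old seedlings was sequenced in 10 libraries of 5 genotypes, 2 each; how libraries were selected or stranded is not given in the sources used here. Per the study's methods and the submitters' processing notes, the authors aligned single-end reads to TAIR10 with HISAT2, used featureCounts to assign reads to exons, and took normalized values from edgeR. The deposited tables, 1 per mutant, hold a signal per gene and library, pseudo-counts that the authors scaled to a common library size. Tables were normalized separately, so comparisons across them used whole reads recovered from the steps of the deposited values (98.9% to 100% of values whole in the 10 libraries, tolerance 0.1 of a read). All 32548 gene IDs matched the annotation of TAIR10.1.

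The comparison with Col-0 used limma 3.58.1 (R 4.3.3) on log2(normalized reads + 1), a filter of a mean of at least 10, an intensity trend, the replicate number as a block and Benjamini-Hochberg adjustment over all genes tested. Alternatives used edgeR 4.0.16 and DESeq2 1.42.0 on recovered reads. The comparison with the other mutants used the edgeR quasi-likelihood test. Replicate numbers pair the libraries: for all 10 pairs of genotypes the deviations of same-numbered libraries correlated (r = 0.371 to 0.611 over 20057 genes). Depth was 20455413 to 20768023 reads per library, and intervals cover counting error only. The scripts were tested on simulated data.

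Named genes were the flowering genes and both targets, the 15 largest rises and 15 largest falls without overlap between genotypes and with at least 20 normalized reads in the higher genotype, the called members and up to 4 others of each list, up to 3 called members of each family, the 5 highest and 5 lowest against the other mutants, and neighbours of genes with an absolute log2FC of at least 3. The comparison, the 26 lists and the 24 families were chosen with earlier results of these data known. No test was run on a list. Alternatives changed the block, pseudocount (0.5 or 5), filter, variance trend, scaling, test and libraries.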

Additional observations from a re-analysis of the deposited data

Results flagged for a closer look

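Genes were picked out here because their change in *efl2 efl4* differed from that in the 3 other mutants by the edgeR test with the replicate block. All values are log2 differences between *efl2 efl4* and the mean of *fld*, *ld* and *sdg26 aprf1*, and causes were not tested. Among higher genes, AT3G08790 differed by 10.95, *CYCB1;5* by 4.50, *AGO9* by 4.33, *HEI10* by 1.72, *SIEL* by 1.57 and *SGS3* by 1.23. The flavonoid genes *TT7* and *DFR* differed by 0.90 and 0.62. Among lower genes, AT3G05945 differed by −5.37, AT1G75945 by −5.21 and AT4G36700 by −3.85. The iron regulators *BHLH101*, *BHLH38*, *BHLH100* and *BHLH39* differed by −2.99, −2.89, −2.87 and −2.74.

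In 3 further genes the difference rests on single libraries or on other mutants. *CRA1*, a seed storage protein, differed by 3.51, with 5.80 and 102 scaled reads in *efl2 efl4*, so replicate 2 alone was high. AT5G36790 differed by 5.91, with 320.2 and 1.93 in *efl2 efl4*, so replicate 1 alone was high. AT1G64795 differed by −7.92, with 0 reads in both *efl2 efl4* libraries, 0.971 and 0 scaled reads in Col-0, 84.96 and 105 in *fld*, 104 and 106 in *ld* and 3.91 and 0.965 in *sdg26 aprf1*, so *fld* and *ld* alone were high.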

How the results depend on the processing

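The count of 573 genes against Col-0 depended most on the replicate block, the variance trend and the filter: 1 gene passed with no replicate block, 1 with no trend and 0 with no filter on low values, and DESeq2 with the block called 131. It ranged from 416 to 694 under the other settings that kept all libraries (pseudocounts, a mean of at least 50, upper-quartile rescaling, edgeR and limma on 10 libraries), and from 0 to 2 when a library was left out, which was possible only without the block. At the study's thresholds the 169 calls became 87 with no replicate block, 87 with a mean of at least 50 and 87 by DESeq2, and 83 to 124 with a library left out. Against the other mutants the 779 calls became 50 with no replicate block and 464 by DESeq2, and ranged from 109 to 1276 with a library left out, the lowest without *efl2 efl4* replicate 2 and the highest without *sdg26 aprf1* replicate 2. In the settings that kept the 4 libraries, every one of the 573 genes that had a value kept its direction (540 had one with a mean of at least 50, 571 in the fit of 10 libraries and 573 in the others); with a library left out, 555 to 567 kept it. Among named genes, signs turned only in fits with a library left out, where log2 values ranged as follows: *WAK1* −0.95 to 0.087, AT1G47400 −1.87 to 0.059, *PAP1* −0.65 to 1.91, *WRKY40* −0.39 to 1.51, AT2G30766 −1.76 to 0.057, *WRKY33* −0.048 to 1.09, AT3G08780 −0.0087 to 0.21, *WRKY70* −0.39 to 1.98, *CBF2* −2.30 to 0.996, *WRKY18* −0.16 to 2.02, AT5G36790 −1.15 to 5.63 and *ERF5* −1.73 to 0.50. The cause of the changes in these counts was not tested. Limits are 2 libraries a genotype, 1 mutant line and unknown culture replication.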

Other observations

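Seed storage genes were low in these seedlings apart from 1 library. The summed level of the 20 listed seed storage and late embryogenesis genes was 31.2 and 17.9 normalized reads in Col-0 and 33.9 and 189 in *efl2 efl4*. *CRA1*, a cruciferin, had 5.04 and 3.97 in Col-0 and 5.96 and 106 in *efl2 efl4*. Replicate 2 of *efl2 efl4* was the high library.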
